A study of Mus musculus with 4 samples.

Results

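The core circadian clock genes are described here across 4 treatments of mouse liver. The 10 members were taken by gene symbol (Arntl, also called Bmal1, Clock, Npas2, Per1, Per2, Per3, Cry1, Cry2, Nr1d1 and Nr1d2). Earlier results of these data were known when these genes were chosen. They had 23 probe sets, out of 34945 probe sets for 18193 genes that carried 1 gene symbol. All 10 members had at least 1 probe set, and 9 of the 10 passed the filter on low signals, Npas2 being the exception. The livers came from 2-month-old C57BL/6J mice that were injected intraperitoneally with ethylbenzene, an aromatic solvent, or with phosphate-buffered saline (PBS). In P+E, 5 mice received PBS first and ethylbenzene second. In P+P, 3 mice received PBS both times. In E+E, 5 mice received ethylbenzene both times, and in E+P, 3 mice received ethylbenzene first and PBS second. The first exposure was a set of 2 injections 24 h apart. The second exposure came 7 days after it, and livers were taken 5 h after the second exposure. Ethylbenzene was given at 7 mmol per kg. RNA was pooled by group and measured on 1 Affymetrix array per group, so the variation among animals is unknown and no test was possible. The pools of 5 mice were those given ethylbenzene second, and pool size and second exposure cannot be told apart.

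The circadian clock of liver cells is a feedback loop in transcription. The proteins BMAL1 (from Arntl) and CLOCK, or NPAS2 in its place, bind together to E-box sequences and activate the Per, Cry and Nr1d genes. PER and CRY proteins then inhibit that activation, and the REV-ERB receptors made from Nr1d1 and Nr1d2 repress Arntl through elements they share with the activating ROR receptors. In mouse liver Arntl RNA therefore runs in nearly opposite phase to the RNAs of the Per and Nr1d genes over the day. The clock time at which each group was killed is not given in the sources used here, so a difference in clock time cannot be told apart from the treatments.

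The arrays carried liver RNA by their markers: all 7 hepatocyte markers passed the filter and lay above its level on every array. Of the 7, 1 was at least 2-fold higher and 0 lower in P+E over P+P, and 0 were either way in E+E over E+P. It was Apob, with a signal of 27987 on P+P against 62547 on P+E, 78771 on E+E and 82975 on E+P. The P+P array stood apart in its control probe sets. Over 3 probe sets of ribosomal 18S RNA its geometric mean reached 1872, while the other arrays had 122 to 182. Ratios of 3′ to 5′ control signal were also highest on P+P. For Pcx the ratio was 23.5, against 6.15 on P+E, 12.0 on E+E and 7.21 on E+P. For Actb it was 4.55, against 3.48, 3.77 and 3.84 in the same order. The Gapdh ratio differed little, at 1.06 against 0.94, 0.97 and 0.91. Whether RNA quality differed among the arrays was not tested. For the members, P+E over P+P is therefore also given with E+P in place of P+P, and it then shares E+P with E+E over E+P. Other results with P+P are given with P+P alone. Markers of other cells differed with the second exposure. Of 7 measured markers of pancreatic acinar cells, 6 were 2-fold or more above their PBS-second array in both second-exposure ratios. The exception, Cela1, was lower at -0.52 and -0.11. The summed signal was 7208 on P+E against 2736 on P+P and 7087 on E+E against 2137 on E+P. Most of the sums after PBS was Cela1, with 2338 on P+P and 1904 on E+P. No acinar marker was below the filter level on P+E or E+E, while 5 were on P+P and 6 on E+P. Of 6 neutrophil markers, 4 passed the filter and 2, S100a8 and S100a9, were likewise higher. The summed signals were 3843 on P+E against 1152 on P+P and 6316 on E+E against 617 on E+P. The other markers were lower in P+E over P+P, with Ngp at -0.89, Camp at -1.51, Ltf at -1.10 and Mpo at -1.41. In E+E over E+P they were at 1.33, 0.05, 1.49 and 0.05. Ltf and Mpo did not pass the filter, and Camp was below its level on P+E. Of 7 Kupffer cell markers 0 were likewise higher, with summed signals of 8940 on P+E against 10402 on P+P and of 10672 on E+E against 16832 on E+P. Of 3 sinusoidal endothelial markers 1 was, with summed signals of 6414 on P+E against 6265 on P+P and of 6556 on E+E against 6119 on E+P. This was Lyve1, at 2.48 and 3.41, while Stab2 was lower at -0.41 and -0.26 and Clec4g at -0.42 and -0.51. The part of these cells in the clock gene values was not tested. In pooled tissue RNA, fewer cells of a type and less RNA per cell cannot be told apart.

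Members of the loop lay on opposite sides after the second exposure. On the arrays of livers taken 5 h after ethylbenzene, Arntl was higher and the 3 Per genes were lower. Nr1d2 was lower too, past 2-fold in E+E over E+P only, while Clock, Cry1, Cry2 and Nr1d1 had log2 ratios short of 2-fold. Log2 ratios are differences of log2(signal + 43.2) after quantile normalization, and at least 2-fold means a log2 ratio of at least 1 in size. Of the 10 members, 3 were at least 2-fold lower and 1 was at least 2-fold higher in P+E over P+P, where 7.24% and 7.08% of the 11522 genes past the filter were. On E+E against E+P, 4 of the 10 were at least 2-fold lower and 1 higher, where 7.26% and 7.45% of genes were. The 2 comparisons share no array. In both, 3 of the 10 (Per1, Per2 and Per3) were at least 2-fold lower and 1 (Arntl) higher, where 2.06% and 3.15% of genes were. The median log2 ratio of the 10 members was -0.40 and -0.65, beside -0.07 and -0.05 for all genes past the filter. With E+P in place of P+P, 4 of the 9 members past the filter were at least 2-fold lower on P+E and 1 was higher, where 6.72% and 6.84% of genes were, and Npas2, which did not pass, was at 1.15.

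**Figure D1:**
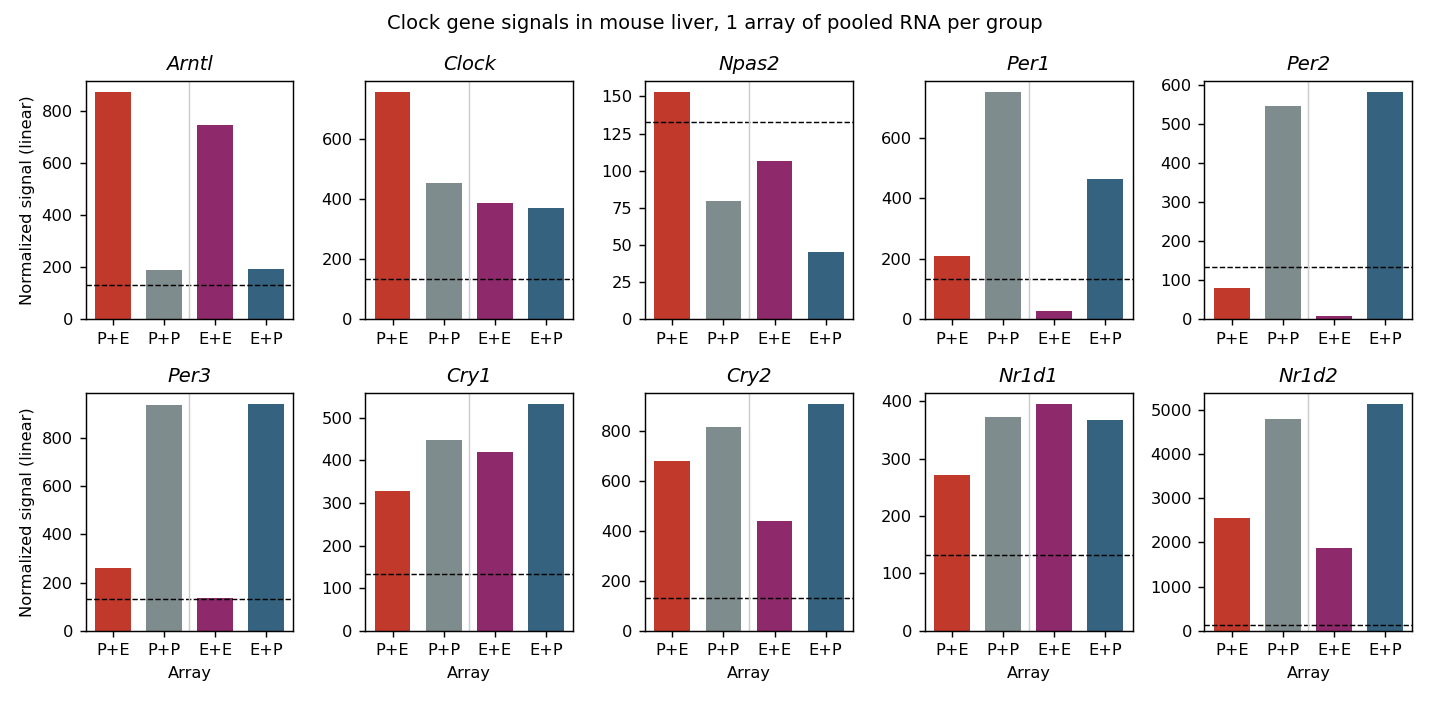
Normalized signal (linear scale, from 0) of each of the 10 clock genes on the 4 arrays, 1 array of pooled RNA per group, with no error bars because there are no replicates. The dashed line is the filter level of 132.8. Arntl stands at 871 and 747 on the ethylbenzene-second arrays against 188 and 192 on the PBS-second arrays, and the Per genes show the reverse order.

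Arntl encodes BMAL1, the partner that every activator complex of the clock needs. Its signal was 871 on P+E against 188 on P+P, and 747 on E+E against 192 on E+P. Signals after ethylbenzene second were above those after PBS second, and the share of all genes in this order was not counted. The log2 ratios were 1.99 and 1.75, which placed Arntl 173rd and 289th from the top of the 11522 genes. Its other probe set also lay above 0, at 0.35 and 2.18, and had a signal of 19.2 on E+P, below the filter level. Averaged over both probe sets, the ratio was at least 2-fold in each comparison. The receptor motif read by ROR and REV-ERB proteins (TAGGTCA or TGGGTCA, on either strand) was found once among the 13 start windows that RefSeq lists for 9 of the members (build GRCm38.p6, from 250 bases before to 50 after a start, Per2 not listed), and that match was in Arntl. It begins 30 bases past 1 of its listed starts. The site is shown because no member besides Arntl was 2-fold higher in both ratios, with the motif in capitals, from chr7:113207530-113207559 on the plus strand, 5′ to 3′.
Arntl: aaggcagaaagTAGGTCAgggacggaggtg
Of all 32851 windows of the table, 6.45% hold this motif, and binding was not measured here.

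Clock encodes the usual partner of BMAL1. Its signal was 753 on P+E against 452 on P+P, and 386 on E+E against 371 on E+P. The P+E array was the highest and the other arrays lay close together, and the log2 ratios of 0.69 and 0.05 were both short of 2-fold. Another pair of its 4 probe sets agreed in sign, at 0.88 and 0.58 for the first and at 0.16 and 0.38 for the next. The dimmest probe set of Clock went the other way in 1 comparison, at -2.09 and 0.42, with a signal of 20.4 on P+E that was below the filter level.

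Npas2, the paralogue that can stand in for CLOCK, did not pass the filter. Its signals of 153 on P+E against 79.4 on P+P, and of 107 on E+E against 45.4 on E+P, reached the filter level of 132.8 on P+E only. The log2 ratios were 0.68 and 0.76, and its dimmer probe set stood at 0.32 and -1.47. The direction of Npas2 is therefore not settled by these arrays.

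The Per genes encode the PERIOD proteins, which enter the nucleus with the cryptochromes and inhibit CLOCK and BMAL1. All 8 of their 10 probe sets above the filter level were below 0 in both comparisons. Of these 8, 7 were at least 2-fold lower in P+E over P+P and 5 in E+E over E+P.

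Per1, a Per gene that also responds quickly to hormones and cyclic AMP, had a signal of 209 on P+E against 751 on P+P. The signal was 28.7 on E+E against 465 on E+P. The E+E signal was below the filter level. The log2 ratios were -1.66 and -2.82, and as a plain ratio of signals, with the low signal set to the filter level, Per1 was at least 3.5-fold lower on E+E. Per1 was the Per gene whose value moved with the choice of control array: with E+P in place of P+P its first ratio was -1.01.

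Per2, a PERIOD gene that mice need for lasting behavioural rhythm, had a signal of 81.1 on P+E against 547 on P+P. The signal was 8.78 on E+E against 582 on E+P. Both values after ethylbenzene lay below the filter level, so as a plain ratio of signals Per2 was at least 4.12-fold lower on P+E and at least 4.38-fold lower on E+E. On the log2 scale the ratios were -2.25 and -3.59, and -1.75 and -1.83 with the low signals set to the filter level. The other probe sets of Per2 were at -2.37 and -1.32 and at -1.33 and -0.21. The last of these probe sets has nearly the same mean signal as the one used, 302.5 against 304.6, and it would represent Per2 if the highest mean of log2 values decided, with a second ratio then short of 2-fold.

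Per3, a PERIOD gene that is not needed for rhythm in mice, had a signal of 262 on P+E against 938 on P+P. The signal was 137 on E+E against 941 on E+P. The PBS arrays were nearly equal, and all signals were above the filter level. The log2 ratios were -1.69 and -2.45, which is 3.22-fold and 5.48-fold lower on the scale of signal + 43.2. Of its 6 probe sets, 4 were above the filter level, and their ratios ran from -2.76 to -0.81 on P+E and from -2.45 to -0.79 on E+E.

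The start regions of Per1 and Per3 are shown because these genes were lower together and carry different clock motifs. Each is the stretch of 250 bases before a RefSeq start (build GRCm38.p6), 5′ to 3′ along the gene. The Per1 stretch is chr11:69098699-69098948 on the plus strand, and the capitals mark 1 E-box (CACGTG), which begins 166 bases before the start. The Per3 stretch is chr4:151044666-151044915 on the minus strand, and the capitals mark 2 D-boxes (TTATGTAA), the motif of DBP and its relatives, which begin 205 and 158 bases before the start.
Per1: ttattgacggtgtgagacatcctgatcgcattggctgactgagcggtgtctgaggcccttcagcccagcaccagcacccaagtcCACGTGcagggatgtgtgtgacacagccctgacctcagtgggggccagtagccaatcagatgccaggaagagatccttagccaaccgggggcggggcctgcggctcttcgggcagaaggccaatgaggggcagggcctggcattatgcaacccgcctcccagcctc
Per3: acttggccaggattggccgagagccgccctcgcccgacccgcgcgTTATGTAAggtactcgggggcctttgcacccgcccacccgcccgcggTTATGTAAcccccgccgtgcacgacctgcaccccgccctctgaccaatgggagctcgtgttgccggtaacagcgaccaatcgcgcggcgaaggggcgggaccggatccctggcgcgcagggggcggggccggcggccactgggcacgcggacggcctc
An E-box is in 7.15% of the 32851 windows of the table. A D-box (TTATGTAA or TTACGTAA, on either strand) is in 1.06% of them. The cyclic AMP response element searched (TGACGTCA) is in 1.79% of windows and in none of the 13 windows of the members.

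**Figure D2:**
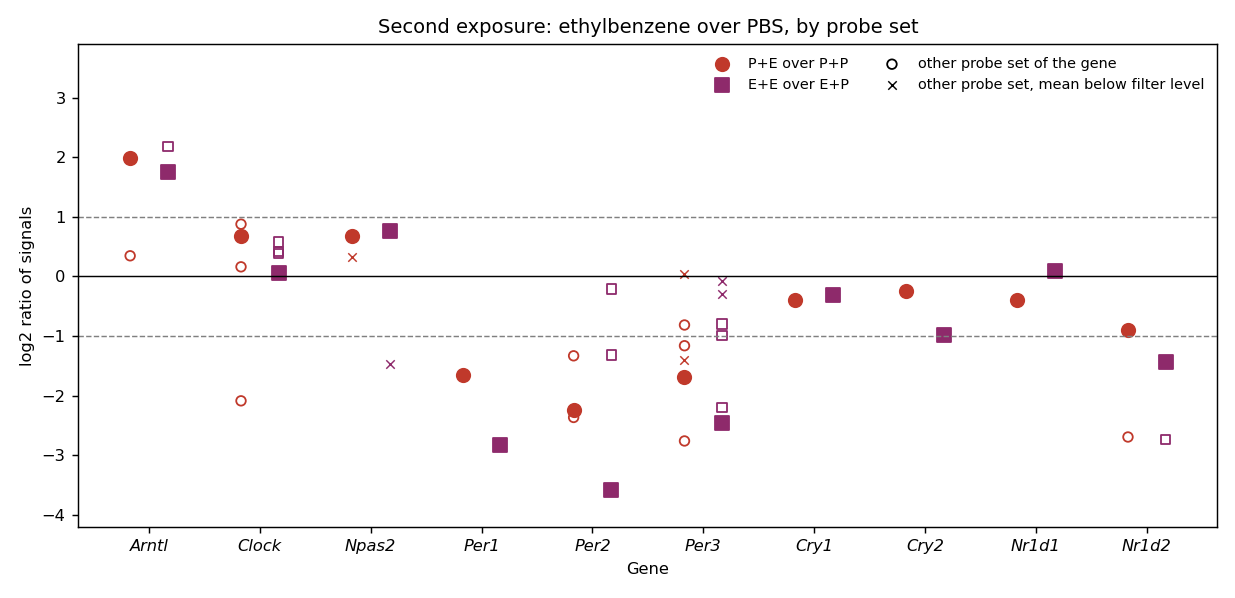
Log2 ratio of signals after the second exposure for each probe set of the 10 clock genes, with circles for P+E over P+P and squares for E+E over E+P. Filled symbols are the probe set that represents the gene, open symbols its other probe sets, crosses those with a mean below the filter level, and dashed lines mark 2-fold. The filled symbols of Arntl lie at 1.99 and 1.75, those of the Per genes between -3.59 and -1.66, and those of Nr1d1 at -0.40 and 0.10.

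The cryptochromes CRY1 and CRY2 are strong inhibitors of CLOCK and BMAL1. Cry1 had a signal of 328 on P+E against 447 on P+P, and of 419 on E+E against 532 on E+P. The ethylbenzene arrays were lower in each comparison, but by log2 ratios of only -0.40 and -0.32, and the largest distance between any 2 of its arrays was 0.63. Cry2 had a signal of 681 on P+E against 817 on P+P, and of 441 on E+E against 910 on E+P. Its ratios were -0.25 and -0.98, so Cry2 came close to 2-fold lower only where ethylbenzene had also been given first, and that difference between the ratios was not tested. With arrays scaled to a common 75th percentile instead, the second of these ratios of Cry2 was past 2-fold. Each cryptochrome had a single probe set, so no other measurement of either was at hand.

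The Cry1 start region is shown because it holds the same E-box as that of Per1, while Cry1 had no 2-fold ratio. The stretch is chr10:85185055-85185304 on the minus strand (RefSeq, GRCm38.p6), 5′ to 3′ along the gene. Capitals mark the E-box CACGTG, which begins 60 bases before the start, and AACGTG, the reverse complement of the E-box variant CACGTT, which begins 79 bases before it.
Cry1: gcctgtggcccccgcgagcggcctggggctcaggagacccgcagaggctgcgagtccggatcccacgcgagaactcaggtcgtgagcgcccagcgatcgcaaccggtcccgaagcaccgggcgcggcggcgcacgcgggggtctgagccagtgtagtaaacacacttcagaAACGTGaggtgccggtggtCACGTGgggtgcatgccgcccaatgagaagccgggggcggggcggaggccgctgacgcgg
The variant is in 4.68% of all windows and, among the members, in those of Cry1, Cry2 and Nr1d1. An E-box was in 2 of the 13 windows, 1 each of Per1 and Cry1, and elements outside these short windows were not searched.

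The receptors REV-ERBα and REV-ERBβ, from Nr1d1 and Nr1d2, repress Arntl and largely overlap in function in mouse liver. Nr1d2 had a signal of 2543 on P+E against 4782 on P+P, and of 1868 on E+E against 5131 on E+P. The log2 ratios were -0.90, short of 2-fold, and -1.44. With arrays scaled to a common 75th percentile the first of these was past 2-fold too. Its other probe set was lower by more, at -2.69 and -2.73, with signals of 62.3 on P+E and 43.6 on E+E below the filter level. Averaged over both probe sets, Nr1d2 was at least 2-fold lower in each comparison, at -1.80 and -2.08.

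Nr1d1 did not follow its paralogue. Its signal was 272 on P+E against 373 on P+P, and 395 on E+E against 367 on E+P. The log2 ratios were -0.40 and 0.10, and the whole range over the arrays was 0.48, the narrowest of the 10 members. Nr1d1 was measured by a single probe set, and its gene overlaps Thra, a thyroid hormone receptor gene, in the RefSeq gene table. The 3 probe sets of Thra had ratios of -0.62 and -1.41, of 1.41 and -1.63, and of -0.20 and 0.10. Whether signal from Thra enters the Nr1d1 probe set was not tested.

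The genes with the pattern most like Arntl and Nr1d1 were found by distance, the root of the summed squared differences of their 4 log2 values after each gene was centred on its own mean. Among 11006 named genes past the filter, those nearest to Arntl over the 4 arrays were Thbs1, Mtm1, Tns2, Gnat1 and Nnmt, at distances from 0.0073 to 0.13. Thbs1, which encodes the matrix protein thrombospondin 1, had signals of 447 on P+E against 81 on P+P and of 382 on E+E against 82.7 on E+P. Its signals on P+P and E+P were below the filter level, unlike those of Arntl. Of the other clock members past the filter, Clock was nearest to Arntl, at a distance of 1.59 and in place 2077. The genes nearest to Nr1d1 were Dcaf6, Mpi, Ifi27, Ube2e2 and Tufm, at distances from 0.038 to 0.045, and Cry1 was the nearest clock member past the filter at 0.30. With 4 arrays such likeness is a description of these arrays only.

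Genes that act around the loop were read from 5 lists, in which 32 genes were measured and 30 passed the filter. Of the 30, 8 were at least 2-fold lower and 1 was at least 2-fold higher in both second-exposure ratios. Each count is given beside the same shares of all genes, 2.06% and 3.15%. The lists were chosen with earlier results of these data known, so these counts are a description only. The members themselves had 3 of 10 lower and 1 of 10 higher. These 9 genes were transcription factors, the repressor Ciart and outputs of the clock, while 0 of 9 kinases and ubiquitin ligase parts and 0 of 8 cofactors that passed the filter were at least 2-fold apart in both.

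Among PAR bZIP factors, which bind D-boxes, Dbp had a signal of 486 on P+E against 5653 on P+P, and of 162 on E+E against 5855 on E+P. Tef, of the same family, was at -1.49 and -1.43 and Hlf, named after its values were seen, at -0.62 and -0.68. Nfil3, which competes with these factors for D-boxes, was the gene higher in both, at 1.81 and 2.01, with signals of 2552 on P+E against 697 on P+P and of 2680 on E+E against 632 on E+P. Within this list the D-box activators and their competitor thus stood on opposite sides of 0.

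Of the receptors and repressors of the REV-ERB loop, Ciart, which encodes an inhibitor of CLOCK and BMAL1, was at -2.15 and -3.96, with a signal of 18.7 on E+E that gives -2.45 for the second ratio when set to the filter level. Rorb was at -1.63 and -2.09, but its signals of 80.8 on P+E and 11 on E+E were below the filter level, and with these set to that level the ratios were -1.13 and -0.39. The other genes of this list were named after their values were seen. Rora, an activator of Arntl, was at 0.04 and -0.58. The repressor gene Bhlhe40 was at 0.65 and 1.01, and its paralogue Bhlhe41 was at -2.20 and -0.27, with 12.7 on P+E below the filter level. The 4 output genes of the list were all past 2-fold lower: Usp2, a deubiquitinase gene, at -3.89 and -3.80, Noct, which encodes nocturnin, at -2.54 and -2.24, the cell cycle kinase gene Wee1 at -1.23 and -1.80, and Nampt, the enzyme of NAD salvage, at -1.87 and -1.28.

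**Figure D3:**
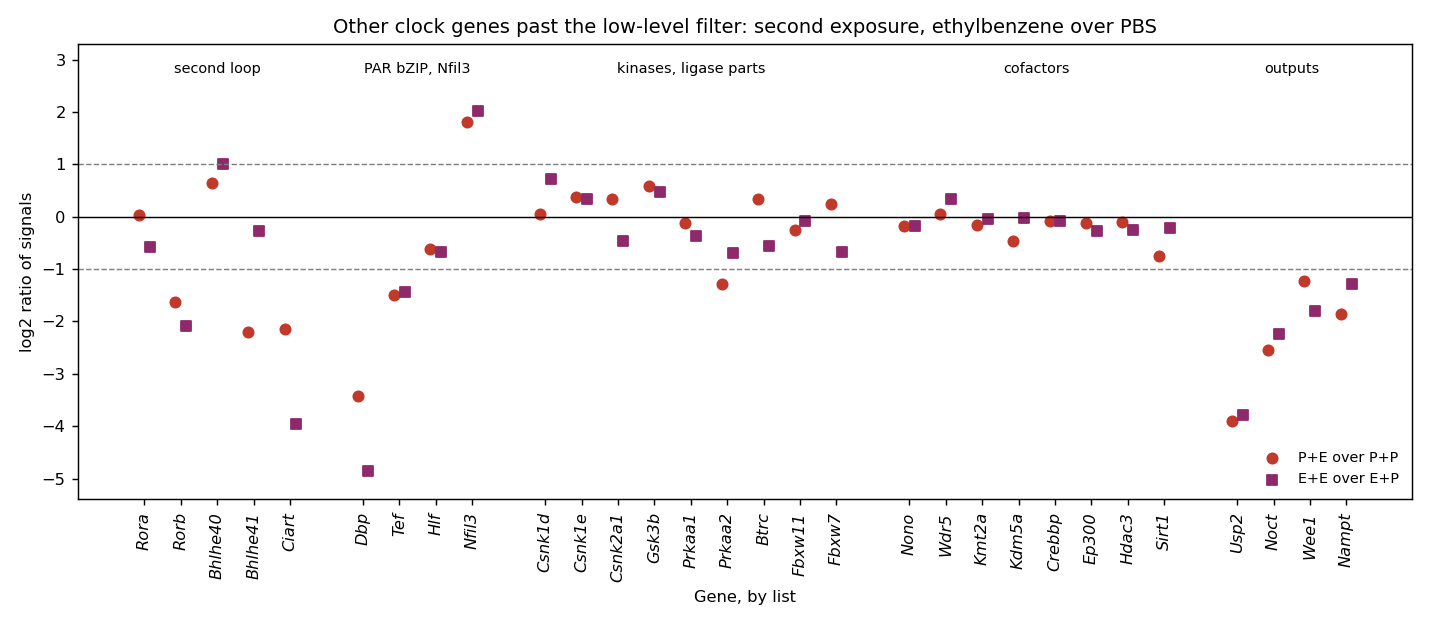
Log2 ratio of signals after the second exposure for the 30 other clock genes past the filter, in 5 lists, with circles for P+E over P+P and squares for E+E over E+P, and dashed lines at 2-fold. Dbp and the 4 output genes lie below -1 in both ratios and Nfil3 lies above 1 in both, while no kinase, ligase part or cofactor lies past a dashed line in both.

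The first exposure was compared in livers taken after the second. In livers given PBS second, the probe sets that represent the clock members lay less than 2-fold apart between E+P and P+P. Of the 10 members, 0 were at least 2-fold lower and 0 higher, where 3.17% and 2.88% of genes were, so the counts are near the shares of all genes. No replicated test exists for these arrays, and P+P stood apart in its control probe sets. The median log2 ratio of the 10 members was 0.02, beside -0.02 for all genes. Arntl was at 0.03, Per2 at 0.08, Per3 at 0.00, Nr1d1 at -0.02 and Nr1d2 at 0.10. Per1 had a signal of 465 on E+P against 751 on P+P and a log2 ratio of -0.64. Other probe sets lay further apart, at -1.68 for Arntl and -0.88 for Per2.

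In livers given ethylbenzene second, 2 of the 10 members were at least 2-fold lower in E+E over P+E and 0 were higher, where 4.43% of genes were lower and 4.43% higher. These were Per1, with 28.7 on E+E against 209 on P+E (-1.81), and Per2, with 8.78 on E+E against 81.1 on P+E (-1.26). Both rest on signals below the filter level, and the other probe sets of Per2 were on the other side of 0, at 1.19 and 0.24. Over the 19 member probe sets above the filter level, 2 were at least 2-fold lower and 2 higher. With such signals set to that level the ratio of Per1 was -0.52 and that of Per2 was 0.00. Clock was at -0.89, Per3 at -0.76, Cry2 at -0.58, Nr1d2 at -0.44, Arntl at -0.21, Cry1 at 0.31 and Nr1d1 at 0.48.

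**Figure D4:**
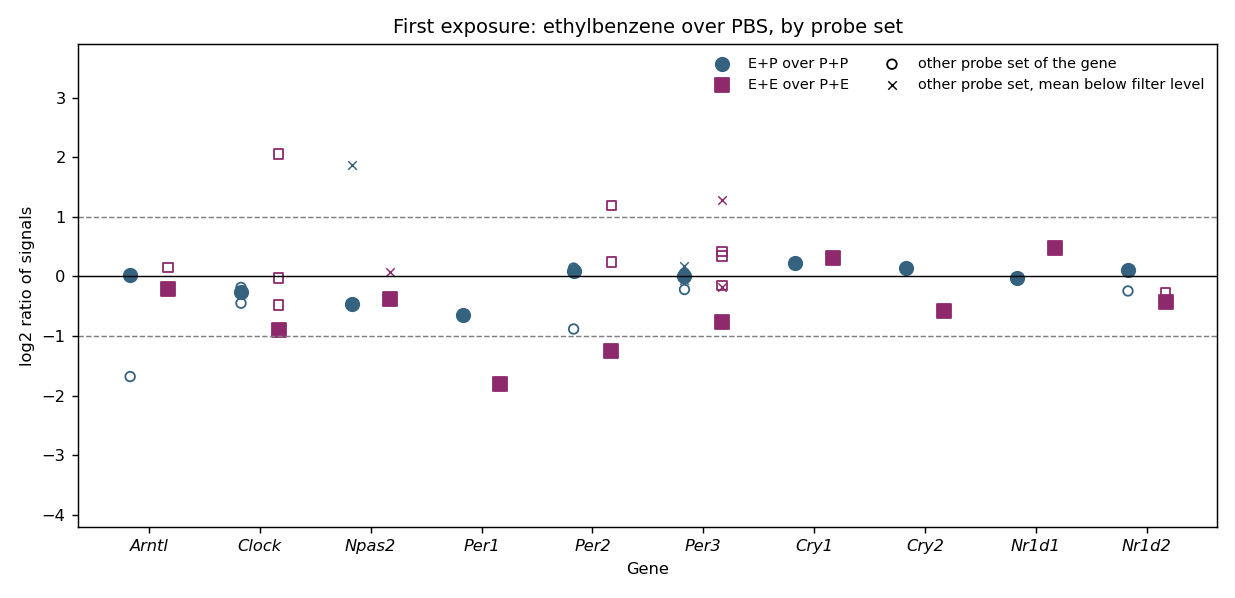
Log2 ratio of signals for the first exposure, by probe set of the 10 clock genes, with circles for E+P over P+P and squares for E+E over P+E. Symbols are filled for the probe set that represents the gene, open for other probe sets and crosses where the mean was below the filter level. Filled circles lie between -0.64 and 0.23, and only the filled squares of Per1 and Per2 lie below the dashed line of 2-fold.

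The question of whether a first dose changes what a later dose does was addressed with the second-exposure log2 ratio in mice given ethylbenzene first minus that in mice given PBS first. This value holds the error of all 4 arrays. It was at least 1 in size for 2 of the 10 members, Per2 (-1.34) and Per1 (-1.17), where 16% of genes were. With signals below the filter level set to that level it was -0.084 for Per2 and 0.13 for Per1. For Arntl the difference was -0.24, with a ratio of 1.75 after ethylbenzene first and 1.99 after PBS first. With the mean of both Arntl probe sets it was 0.80, and E+P over P+P was then -0.83, the other probe set having 19.2 on E+P against 157 on P+P. The remaining members lay between -0.77 for Per3 and 0.50 for Nr1d1.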

How the data were processed

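The deposited files hold linear intensities for 45101 probe sets on each of 4 arrays. They had been scaled before deposit, since each array had a 2% trimmed mean of 500.0. The software is not given in the sources used here. Median log2 signals lay 0.24 apart, so the deposited intensities were quantile-normalized and used as log2(signal + 43.2), 43.2 being the 25th percentile of deposited signals (Python 3.11.15, numpy 2.4.6, pandas 2.3.3). This scale understates differences of genes with low signals. Symbols came from the platform annotation, updated through Entrez identifiers for 34741 probe sets (RefSeq, GRCm38.p6). The probe set with the highest mean signal stood for its gene, which passed the filter when that mean reached 132.8, the median over all probe sets. For Per1 and Per2, folds from signals below this level are printed as lower bounds. With 1 array per group there was no test and no p-value, and 2-fold was the rule of size. The steps were tested on simulated data, with changes put only into genes of higher mean signal than most members have. Changes at low signals were therefore not covered. The text names all members, the other clock genes at least 2-fold apart in both second-exposure ratios, and the 5 genes nearest to Arntl and to Nr1d1. Members and lists were chosen with earlier results of these data known.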

Additional observations from a re-analysis of the deposited data

Results flagged for a closer look

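Some members had ratios of opposite sign in the groups compared, a difference that was not tested. For the second exposure this held for Nr1d1, at 0.10 in mice given ethylbenzene first and -0.40 in mice given PBS first, a difference of 0.50. For the first exposure, the ratio in livers given ethylbenzene second minus that in livers given PBS second was -1.34 for Per2, -0.77 for Per3, -0.73 for Cry2, -0.54 for Nr1d2, -0.24 for Arntl and 0.50 for Nr1d1. It is the same quantity as the difference of the second-exposure ratios, and 1 of the ratios of each of these genes lay within 0.15 of 0.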

How the results depend on the processing

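The members' ratios, counts, medians and differences were recomputed under 9 other settings and, chosen after seeing the data, with the probe set of highest mean log2 value. E+P in place of P+P, also chosen then, was run for P+E over P+P only. The other lists, markers and nearest genes were not recomputed. Of 143 repeated counts and medians, 8 moved by over 1.5 times. With the 75th percentile filter, which 6 members pass, the members at least 2-fold lower numbered 1 on P+E (4.10% of genes), 2 on E+E against E+P (4.49%), 1 in both (1.92%) and 0 on E+E against P+E (0.87%). The last count was 1 with the pseudocount at the median signal, with the mean of all probe sets and with the highest mean log2 value, and 0 with low signals at the filter level. For single members, 5 of 510 repeated values turned the sign of a value that was at least 2-fold, while some values near 0 also changed sign. The 510 include repeats that could not differ. A changed filter, or leaving out probe sets that match several transcripts, left each member's value as it was. With the mean of all probe sets Per2 was at 0.057 for E+E over P+E and at 0.28 for the difference of ratios, and with the highest mean log2 value at 0.24 and 1.12. With low signals at the filter level the difference of Per1 was 0.13. Under the settings that could change a value, Arntl, Per1 and Per3 kept ratios past 2-fold in their direction for both second exposures. Per2 did so too except for its second ratio, -0.21 with the highest mean log2 value. Signals below the filter level limit the ratios of Per1, Per2 and Npas2. No paired analysis was possible because each group had 1 array.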

Other observations

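The 30 other clock genes past the filter were also compared for the first exposure. On E+P against P+P, 1 of 30 was at least 2-fold lower and 0 were higher, where 3.17% and 2.88% of all genes were. It was Noct, at -1.13, with signals of 2454 on E+P against 5421 on P+P. On E+E against P+E, 5 of 30 were lower and 1 was higher, where 4.43% of all genes were lower and 4.43% higher. Dbp (-1.37), Fbxw7 (-1.28) and Btrc (-1.07) were lower with signals above the filter level, 162 on E+E against 486 on P+E for Dbp. The other calls rest on signals below it. With these set to the filter level, Ciart was at -0.92 in place of -2.43, Rorb at 0 in place of -1.19 and Bhlhe41, the higher gene, at 0.19 in place of 1.85. Fbxw7, Btrc and Bhlhe41 were named after their values were seen.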
